A study of Mus musculus with 12 samples.

Results

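The 10 genes described here belong to the protein-folding response of the endoplasmic reticulum (ER) and were followed in 12 mouse livers: Hspa5, Hyou1, Pdia4, Sdf2l1, Dnajb9, Creld2, Manf, Xbp1, Herpud1 and Ddit3. They were 10 of the 48526 genes in the deposited expression table, and all 10 were among the 11968 that passed the study's filter on low values. The genes were chosen by name as ER chaperones and unfolded protein response genes, with their change under statin in each sex in view, above all the pair Dnajb9 and Creld2, which moved apart. The statin comparisons of these 10 genes are therefore given as a description with no test.

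The livers came from female and male mice of the inbred strain C57BL/6J, 8 to 10 weeks old when the diets began. Each sex was fed either chow alone or the same chow with simvastatin, an inhibitor of the cholesterol synthesis enzyme HMG-CoA reductase, for 4 weeks, giving 3 livers in each of 4 groups. The simvastatin dose was 0.1 g/kg, which the sample labels give per body weight and the study's methods per weight of food. Poly(A) RNA of whole liver was sequenced, so fewer cells of a type and less RNA per cell cannot be told apart, and p-values measure the spread between these livers.

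The ER folds secreted and membrane proteins, a heavy load in hepatocytes, which make most plasma proteins. When unfolded proteins accumulate, the chaperone BiP, the product of Hspa5, leaves the sensors IRE1, PERK and ATF6. IRE1 splices the Xbp1 transcript into one that encodes an active transcription factor, ATF6 is cut into another, and PERK slows translation while raising ATF4, which acts upstream of Ddit3. The spliced and unspliced forms of Xbp1 are not separated by counts per gene.

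The promoter sequences below are shown because several of these genes carry the ER stress response element (ERSE, the letters CCAAT and CCACG with 9 free bases between them) or its shorter relative ERSE-II (ATTGG and CCACG with 1 free base between them), both searched on either strand. RefSeq promoter windows of GRCm38, from 250 bases before to 50 after the RefSeq gene start, were matched for 8 of the 10 genes, and Hyou1 and Manf had no match. The RefSeq start equals the outer end of the GENCODE gene given further on for Creld2 and Sdf2l1. It lies inside that gene by 258 bases for Dnajb9, 120 for Hspa5 and 19 for Ddit3, and outside it by 82 bases for Pdia4, 18 for Xbp1 and 9 for Herpud1. Of 32851 windows, 0.119% held an ERSE and 0.0365% an ERSE-II. Capitals mark the full element. The Creld2 element lies on the opposite strand, and both ERSE matches contain the CCACG core counted separately below.
Hspa5, chr2:34772020-34772048, plus strand: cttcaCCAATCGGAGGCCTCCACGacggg
Creld2, chr15:88819515-88819543, plus strand: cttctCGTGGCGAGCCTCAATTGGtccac
Herpud1, chr8:94386372-94386392, plus strand: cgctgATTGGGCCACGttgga

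The Dnajb9 window, which lies wholly inside the GENCODE gene, so that bases before its outermost start were not searched, held no full element. It had 2 copies of the core CCACG, as did Creld2 and Herpud1. Of all windows 32.8% hold the core at least once and 10.1% hold 2 or more copies. Sdf2l1 had 3 copies, all on the opposite strand, Hspa5 and Pdia4 had 1 each, and Xbp1 and Ddit3 had 0. Capitals mark the core in the stretches below, each written along the strand of its gene. The windows of Pdia4, Xbp1 and Ddit3 held no full element. None of the 8 windows held the UPRE core TGACGTGG, present in 0.676% of all windows, or the CARE core TGATGNAAT, present in 0.965%. A match or its absence describes only these letters in this window.
Dnajb9, chr12:44210162-44210186, minus strand: caacagttttCCACGtgcgcgtagg
Dnajb9, chr12:44210069-44210093, minus strand: gtcgcgccagCCACGggctcccgcc
Sdf2l1, chr16:17132576-17132600, minus strand: tgcggctttcCGTGGcctctccggg
Sdf2l1, chr16:17132518-17132542, minus strand: tcctcggaagCGTGGaccagttaaa
Sdf2l1, chr16:17132386-17132410, minus strand: gattggctgcCGTGGgagggcgctg

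The libraries held 46066381 to 60419223 counts each, so that 3 counts correspond to 0.0497 to 0.0651 CPM, which are counts scaled to a common library total. This floor covers counting error only. The totals are above the mean depth that the study's methods state, and whether a count is a read or a read pair is not given in the sources used here. All 10 genes were far above that floor, the lowest count being 189 for Ddit3. Hepatocyte markers led the marker lists, with a summed level of 74277 to 153400 CPM per liver. Markers of pancreatic acinar cells, another tissue rich in ER chaperones, summed to 6.34 to 16.5 CPM, of which Cela1 gave 5.64 to 16.1 CPM, and their defining genes Cel and Amy2a5 were at 0 in all 12 livers. Levels below are CPM after scaling by the trimmed mean of M values (TMM), which corrects for differences in library composition. Fold changes are log2 estimates with their standard error (SE) from edgeR.

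Compared per kilobase (kb) of exon, Herpud1 and Hspa5 had the highest levels, with means over the 12 livers of 172 and 138 CPM per kb. Pdia4 and Xbp1 followed at 62.5 and 62.3 CPM per kb. Dnajb9 (22.3), Sdf2l1 (18.3), Hyou1 (16.5), Manf (15.5) and Creld2 (13.8 CPM per kb) came next, and Ddit3 was lowest at 2.73 CPM per kb. Ranges over livers overlapped between Herpud1 (123 to 218 CPM per kb) and Hspa5 (110 to 171), between Pdia4 and Xbp1, and among the 5 genes from Dnajb9 to Creld2. Ddit3, at 2.25 to 3.57 CPM per kb, lay below every other gene in every liver.

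**Figure D1:**
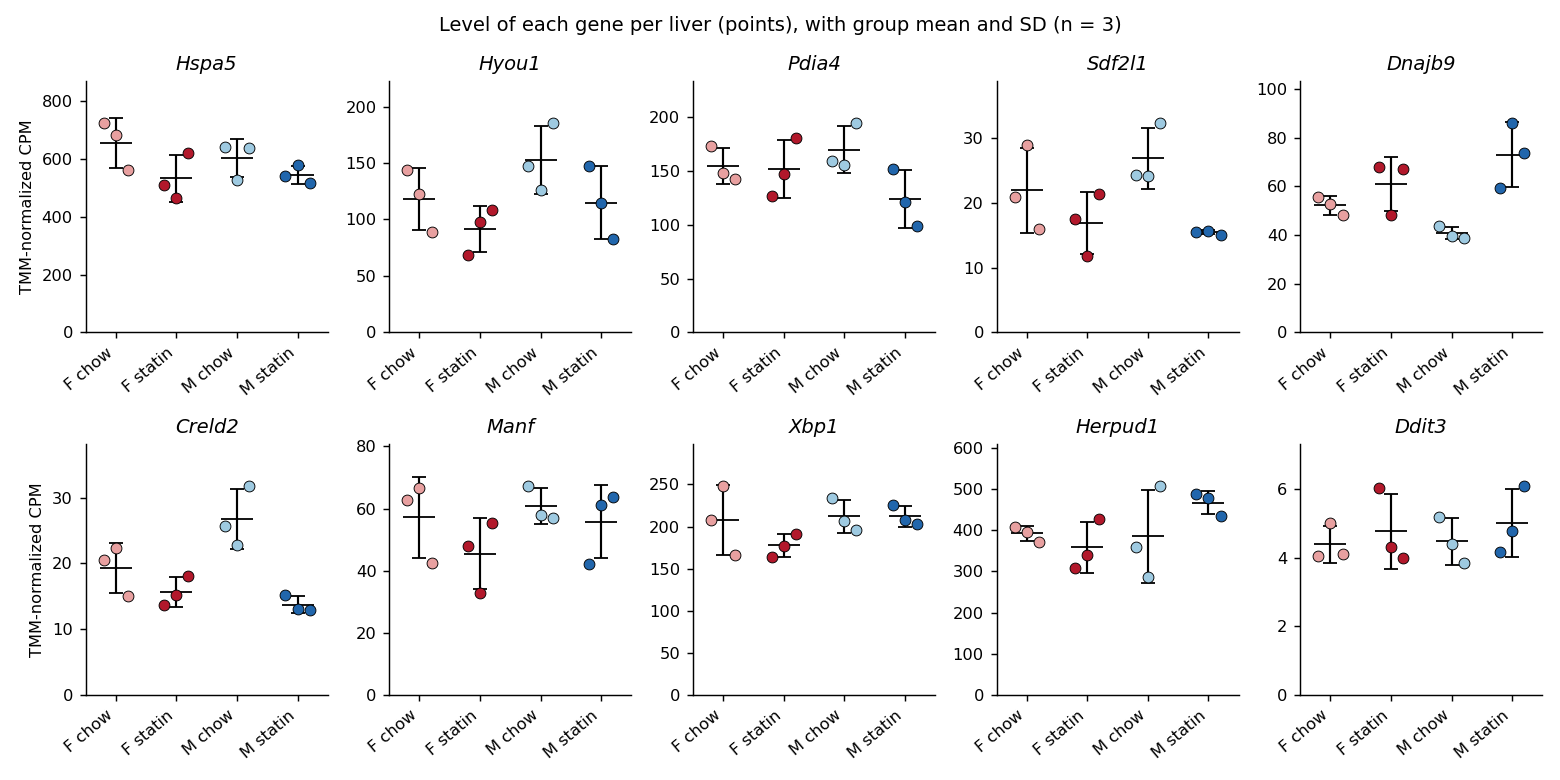
TMM-normalized CPM (vertical axes, each from 0) of the 10 genes in every liver of the 4 groups, with the group mean (long bar) and SD (n = 3). In males the Dnajb9 livers on statin lie above those on chow, and the Creld2, Sdf2l1 and Pdia4 livers on statin lie below.

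In males, Dnajb9 and Creld2 were the furthest apart of the 10 genes under statin. Dnajb9 (GRCm38 chr12:44205559-44210326, minus strand) encodes ERdj4, an ER co-chaperone of BiP that also holds IRE1 in its inactive state. In males its level was 43.8, 39.7 and 38.9 CPM in the chow livers and 59.4, 86.1 and 73.6 CPM in the statin livers. In females it was 55.8, 53.0 and 48.0 CPM on chow and 67.8, 48.3 and 67.3 CPM on statin. All male statin livers were above all male chow livers, whereas 1 female statin liver lay within the female chow range. The log2 fold change of Dnajb9 was 0.84 (SE 0.16) in males and 0.23 (SE 0.16) in females.

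Creld2 (chr15:88819646-88826683, plus strand) encodes a secreted ER stress protein with disulphide isomerase activity. Male chow livers had 25.7, 22.8 and 31.8 CPM of Creld2 and male statin livers 15.2, 13.0 and 13.0 CPM. Female chow livers had 20.6, 22.3 and 15.0 CPM and female statin livers 13.6, 15.3 and 18.1 CPM. The male groups did not overlap and the female groups did. Creld2 was lower on statin by a log2 fold change of -0.96 (SE 0.18) in males and -0.30 (SE 0.18) in females. Its neighbour Alg12, on the opposite strand with a start 328 bases away, had -0.31 (SE 0.22) in males and 0.06 (SE 0.22) in females.

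Within a liver, the ratio of Dnajb9 to Creld2, both per kb, was 0.913, 0.931 and 0.655 in the male chow livers. In the male statin livers it was 2.09, 3.54 and 3.04. Female livers had 1.45, 1.27 and 1.72 on chow and 2.67, 1.70 and 1.99 on statin. The 3 male chow livers were thus the only livers of the 12 with more Creld2 than Dnajb9 per kb. The female groups overlapped narrowly, since the lowest statin ratio, 1.70, lay under the highest chow ratio, 1.72.

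**Figure D2:**
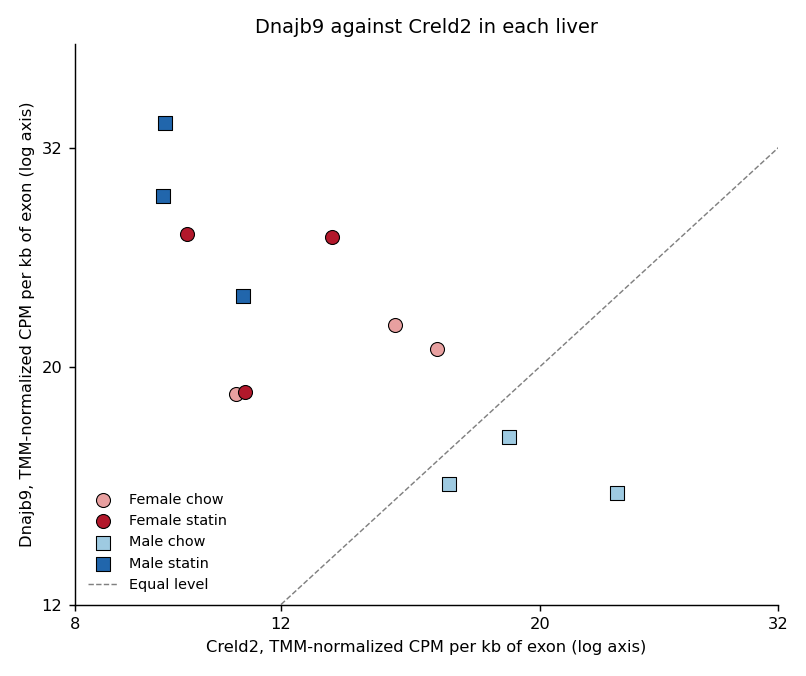
Level of Dnajb9 (vertical) against Creld2 (horizontal) in each of the 12 livers, both in TMM-normalized CPM per kb of exon on log axes, with the line of equal level. The male chow livers lie below the line and the male statin livers lie at the upper left, with ratios of 2.09 to 3.54.

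Set against Hspa5 in the same liver, the 2 genes again differed. Dnajb9 per Hspa5 was 0.101 to 0.125 in males on chow and 0.182 to 0.247 on statin. In females it was 0.128 to 0.142 on chow and 0.173 to 0.220 on statin. On this scale the chow and statin livers of Dnajb9 did not overlap in either sex. The share of all genes separated on this scale was not counted. In females Dnajb9 by itself overlapped, and the divisor Hspa5 had a log2 fold change of -0.30 (SE 0.15). Creld2 per Hspa5 was 0.124 to 0.155 in male chow and 0.0698 to 0.0872 in male statin livers. In females it was 0.0829 to 0.101 on chow and 0.0826 to 0.102 on statin, nearly the same range.

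The sex differences of these 2 genes were also read within each diet. On chow, the log2 difference of females over males was 0.36 (SE 0.16) for Dnajb9 and -0.47 (SE 0.18) for Creld2. On statin it was -0.26 (SE 0.16) for Dnajb9, from -0.39 to -0.12 when 1 liver was left out, and 0.19 (SE 0.18) for Creld2, from 0.07 to 0.27. Subtracting the male from the female log2 fold change gave -0.61 (SE 0.23) for Dnajb9 and 0.66 (SE 0.25) for Creld2. These comparisons share their chow and statin livers with the ones that chose the genes.

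Of the chaperones, Hspa5 (chr2:34771970-34777547, plus strand) encodes BiP, the major Hsp70 chaperone of the ER. The females had 725, 683 and 560 CPM of Hspa5 on chow and 511, 465 and 622 CPM on statin. The males had 642, 527 and 638 CPM on chow and 540, 578 and 517 CPM on statin. Chow and statin livers overlapped in both sexes. The log2 fold change of Hspa5 was -0.30 (SE 0.15) in females and -0.14 (SE 0.15) in males.

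Hyou1 (chr9:44379490-44392369, plus strand) encodes a nucleotide exchange factor of BiP. Female levels of Hyou1 were 143, 123 and 89.1 CPM on chow and 68.7, 97.8 and 108 CPM on statin. Male levels were 147, 126 and 186 CPM on chow and 147, 115 and 82.6 CPM on statin. The groups overlapped in both sexes. Log2 fold changes of Hyou1 were -0.37 (SE 0.25) in females and -0.41 (SE 0.25) in males.

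Pdia4 (chr6:47796141-47813430, minus strand) encodes ERp72, a protein disulphide isomerase. Female livers had 174, 148 and 143 CPM on chow and 127, 148 and 180 CPM on statin, with overlap. Male livers had 159, 155 and 195 CPM on chow and 152, 121 and 98.8 CPM on statin, and these groups did not overlap. The male gap was narrow, as the highest statin liver had 152 CPM and the lowest chow liver 155 CPM. For Pdia4 the log2 fold change was -0.03 (SE 0.18) in females and -0.45 (SE 0.18) in males.

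Sdf2l1 (chr16:17130138-17132383, minus strand) encodes an ER protein that works with BiP and its J-domain partners. Male livers had 24.3, 24.1 and 32.4 CPM on chow and 15.6, 15.7 and 15.1 CPM on statin. Female livers had 20.9, 28.9 and 16.0 CPM on chow and 17.5, 11.7 and 21.3 CPM on statin. Male statin livers were all below male chow livers and spread little, with a mean of 15.4 ± 0.305 CPM (SD, n = 3), while the female groups overlapped. The log2 fold change of Sdf2l1 was -0.80 (SE 0.24) in males and -0.38 (SE 0.24) in females.

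Manf (chr9:106838312-106891979, minus strand) encodes a secreted ER stress-induced protein that binds BiP. Manf stood at 62.8, 66.5 and 42.3 CPM in females on chow and at 48.0, 32.9 and 55.4 CPM in females on statin. It stood at 67.4, 57.8 and 57.0 CPM in males on chow and at 42.2, 61.1 and 63.9 CPM in males on statin. No pair of chow and statin groups was separated. Its log2 fold changes were -0.33 (SE 0.22) in females and -0.12 (SE 0.22) in males. Manf overlaps Dcaf1, Rbm15b and 4930524O07Rik in the annotation, so some of its reads may be shared with them.

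Xbp1 (chr11:5520659-5525893, plus strand) encodes the transcription factor that IRE1 activates by splicing. The females had 208, 249 and 166 CPM of Xbp1 on chow and 164, 177 and 191 CPM on statin. The males had 234, 206 and 196 CPM on chow and 225, 208 and 203 CPM on statin. Chow and statin livers overlapped in each sex, and the male means were 212 ± 19.8 CPM on chow and 212 ± 11.9 CPM on statin (SD, n = 3). The female log2 fold change was -0.22 (SE 0.15).

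Herpud1 (chr8:94386438-94395377, plus strand) encodes a membrane protein of ER-associated degradation (ERAD), which returns misfolded proteins to the cytosol. Female livers had 409, 396 and 372 CPM on chow and 309, 340 and 428 CPM on statin. Male livers had 359, 287 and 508 CPM on chow and 488, 477 and 434 CPM on statin. One male chow liver was above all male statin livers and the other two were below them. Herpud1 had log2 fold changes of -0.13 (SE 0.19) in females and 0.28 (SE 0.19) in males, and the male value was 0.53 without that male chow liver and 0.11 without male chow replicate 2.

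Ddit3 (chr10:127290774-127296288, plus strand) encodes CHOP, a transcription factor linked to cell death under prolonged ER stress. Female levels of Ddit3 were 4.05, 5.03 and 4.12 CPM on chow and 6.03, 4.32 and 3.99 CPM on statin. Male levels were 5.19, 4.41 and 3.85 CPM on chow and 4.16, 4.78 and 6.11 CPM on statin. The groups overlapped throughout. Ddit3 had log2 fold changes of 0.12 (SE 0.21) in females and 0.16 (SE 0.21) in males. It overlaps Mars on the opposite strand and another annotated identifier of the same name, so its reads may be shared.

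**Figure D3:**
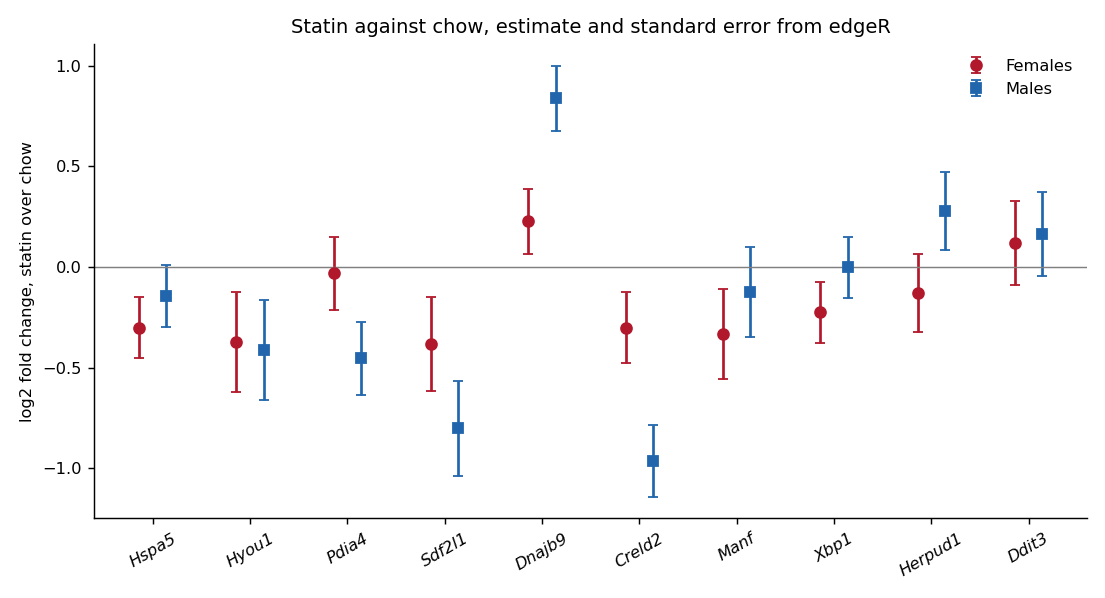
Log2 fold change of statin over chow (vertical axis) for the 10 genes, in females (circles) and males (squares), with SE from edgeR. Male Dnajb9 lies highest at 0.84 and male Creld2 lowest at -0.96, and the female values lie between -0.38 and 0.23.

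In males, 4 of the 10 genes had chow and statin livers that did not overlap, where 7.95% of all genes did not. Of these 4, Dnajb9 was above (3.64% of all genes) and Pdia4, Sdf2l1 and Creld2 were below (4.3% of all genes). In females none of the 10 was separated, where 12% of all genes were. These counts describe values that chose the genes. Over all genes, edgeR called 12 in females (0.1% of genes tested, adjusted p under 0.05) and 0 in males (0%, with 234 or 1.96% at an unadjusted p under 0.05 and 4 by DESeq2). The female count was 270 by DESeq2 and 0 to 75 when 1 liver was left out, 75 without female statin replicate 2 and 0 without female statin replicate 3 among others.

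Averaged over both diets, none of the 10 genes passed the test of a sex difference in edgeR. The log2 differences of females over males ran from -0.35 (Hyou1) to 0.08 (Pdia4), 3 above 0 and 7 below, where 47.6% of all genes were above 0. The count was 0 of 10 at an adjusted p under 0.05, 0 of 10 at an unadjusted p under 0.05 and 0 of 10 by DESeq2, whereas edgeR called 18.1% of all genes, 11.2% higher and 6.91% lower in females, and 31% had an unadjusted p under 0.05. The lowest adjusted p was 0.202, for Hyou1, with an interval of -0.73 to 0.03 at the 95% level. Dnajb9 had 0.05 (SE 0.11, adjusted p = 0.815) and Creld2 -0.14 (SE 0.12, adjusted p = 0.486), averages over diets within which their differences were of opposite sign. Hspa5, at 0.04 (SE 0.11), had an interval of -0.19 to 0.28. The signs of Hspa5 and Dnajb9 turned when libraries were scaled by their size alone or when single livers were left out, as did those of Sdf2l1 and Ddit3 in the latter case. Scaling by size alone moved the median of all genes by -0.06 in this comparison, close to the move of these 2 genes.

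**Figure D4:**
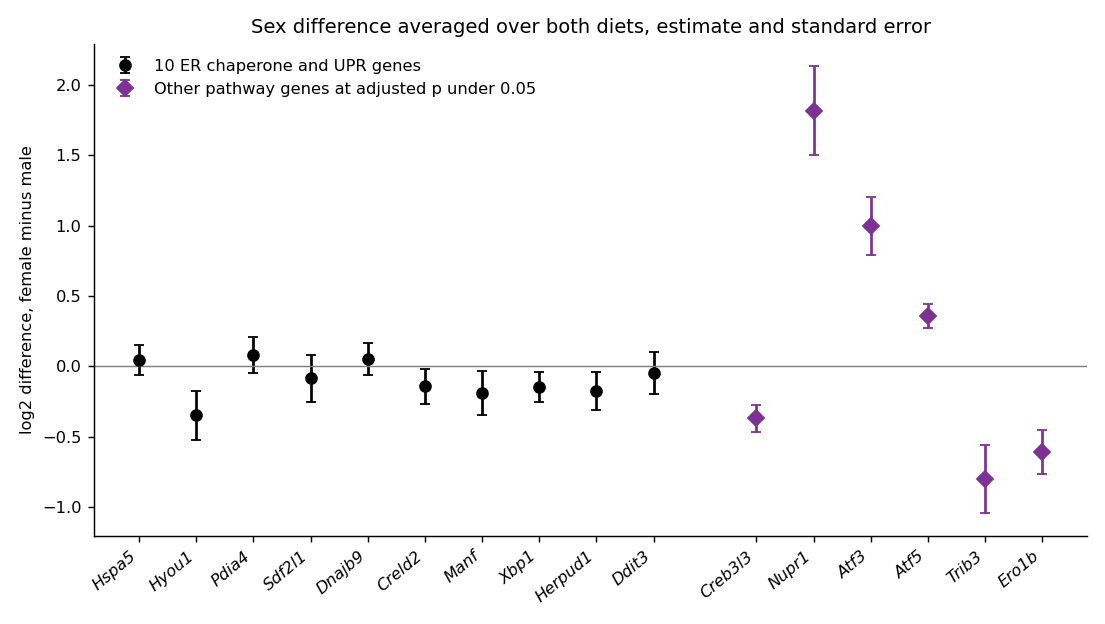
Log2 difference of females over males averaged over both diets (vertical axis, with SE from edgeR) for the 10 genes (circles) and the 6 other pathway genes at an adjusted p under 0.05 (diamonds). The 10 genes lie between -0.35 and 0.08 and the other 6 between -0.80 and 1.82.

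Other genes of the response, 75 tested of 77 listed, were read in the same comparison, and 6 of 75 passed, 3 higher and 3 lower in females. Of all genes 18.1% passed, 11.2% higher and 6.91% lower. The pathway count was 12 with library size alone and 3 with the stricter filter. Of 12 genes of the integrated stress response, the branch downstream of PERK, 3 were higher and 1 lower. Nupr1, a stress-induced chromatin protein, was higher in females by 1.82 (SE 0.32, adjusted p = 0.00200), and Atf3, a stress-induced transcription factor, by 1.00 (SE 0.21, adjusted p = 0.00567). Male means on chow and on statin were 0.91 and 0.88 CPM for Nupr1, and 0.78 and 0.77 CPM for Atf3. Female means were 4.17 and 2.39 CPM for Nupr1, and 1.65 and 1.46 CPM for Atf3. Both thus passed the filter, above 1 CPM in at least 6 livers, mainly through female livers. Their calls are therefore not independent of that filter. On the log2(CPM + 1) scale in limma, which understates changes of such low genes, the values were 1.09 for Nupr1 and 0.53 for Atf3. Atf5, a target and relative of ATF4, was higher by 0.36 (SE 0.08, adjusted p = 0.0112). Trib3, a pseudokinase induced with CHOP, was lower at -0.80 (SE 0.24, adjusted p = 0.0375), a call lost in 10 alternatives, mostly when 1 liver was left out. The call of Atf5 was lost with no filter on low counts. Within each diet, females were above males by 0.63 on chow and 0.09 on statin for Atf5, and below by -0.31 and -1.30 for Trib3. The test of the difference between diets gave an adjusted p of 0.366 for Atf5 and 0.671 for Trib3.

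Among 7 sensors, Creb3l3, a liver membrane-bound transcription factor processed like ATF6, was lower in females at -0.37 (SE 0.10, adjusted p = 0.0192). Creb3l3 averaged 205 ± 25.4 CPM in chow-fed and 331 ± 45.4 CPM in statin-fed females, and the male means were 345 ± 8.47 and 329 ± 9.89 CPM (SD, n = 3), so the low group was that of females on chow. The test of the difference between diets gave an adjusted p of 0.305. Among 23 other chaperones and oxidoreductases, Ero1b, an oxidase that drives disulphide formation, was lower at -0.61 (SE 0.16, adjusted p = 0.0194). None of 16 ERAD genes passed (3 at an unadjusted p under 0.05, 1 by DESeq2), nor did any of 17 genes of translocation into the ER and transport (1 at an unadjusted p under 0.05, 1 by DESeq2). Of 15 cytosolic and mitochondrial heat shock genes, Hspa4l (0.52, adjusted p = 0.00146) and Hspb8 (0.43, adjusted p = 0.0367, lost in 11 alternatives) were higher in females. Within diets the difference was 0.91 on chow and 0.13 on statin for Hspa4l, and 0.76 and 0.10 for Hspb8. The difference between diets had an adjusted p of 0.263 for Hspa4l and 0.503 for Hspb8. Kupffer cell markers summed to 447 to 718 CPM in female and 259 to 421 CPM in male livers. Endothelial and stellate markers summed to 393 to 512 against 295 to 367 CPM, and plasma and B cell markers to 14.3 to 28.9 against 7.06 to 12.6 CPM. Acinar markers summed to 6.34 to 10.7 CPM in females and 10.1 to 16.5 CPM in males. The part of these cells in the sex differences was not tested.

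Under statin, none of the 75 other pathway genes passed in edgeR in either sex. In females 9 of 75 had an unadjusted p under 0.05, as did 10.5% of all genes, and 4 passed in DESeq2 (Creb3l3, Edem2, Atf5 and Ssr2), with 18 estimates above 0 and 57 below, where 52.8% of all genes were above 0. Of the 17 translocation genes 16 were below 0, with a median log2 fold change of -0.09 against 0.01 over all genes. In males 35 of the 75 were above 0, where 51% of all genes were, as were 11 of the 17 translocation genes. The lean below 0 in females was not particular to these ER lists. Of the 15 heat shock genes 13 were below 0 in females, with a median of -0.16. Of these 15, 8 had an unadjusted p under 0.05 and 3 passed in DESeq2. In males 12 of the 15 were above 0. In females the summed hepatocyte markers had a median of 99780 CPM on chow and 143450 CPM on statin, endothelial and stellate markers 496 and 405 CPM, plasma and B cell markers 15.9 and 27.8 CPM, Kupffer cell markers 560 and 666 CPM and cholangiocyte markers 39.0 and 24.4 CPM, with overlapping livers for each list. Their part in the statin estimates was not tested. The lowest female estimates were those of Asns, asparagine synthetase, at -1.43 (SE 0.51, adjusted p = 0.324) and Nupr1 at -0.80 (SE 0.42, adjusted p = 0.567), the latter -0.37 without female statin replicate 3. Asns was a low gene, with female means of 1.59 CPM on chow and 0.589 CPM on statin. Its estimate ranged from -1.85 to -0.63 over the alternatives. The highest were Derl3, an ERAD channel component, at 1.17 (SE 0.88, adjusted p = 0.765, of opposite sign without female statin replicate 3) and Creb3l3 at 0.69 (SE 0.14, adjusted p = 0.0951). In males 2 of 75 had an unadjusted p under 0.05 and 0 passed in DESeq2. The male estimates ran from -0.49 (Derl3, 0.077 with a replicate block and -0.03 without male chow replicate 3) and -0.41 (Calr, the lectin chaperone calreticulin) to 0.44 (Sec61g, a translocon subunit, 0.10 without male statin replicate 3) and 0.52 (Txndc11, a thioredoxin-domain protein), each with an adjusted p of 1.00. The difference between the sexes in the statin fold change passed for 0 of 75 in edgeR (7 at an unadjusted p under 0.05) and for 2 in DESeq2, where edgeR called 0% of all genes and 8.01% had an unadjusted p under 0.05.

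Within groups, the other 9 genes were read against Hspa5 in the same liver, and no slope passed the test. Hspa5 deviated from its group mean by -0.22 to 0.24 on the log2 scale, with a within-group SD of 0.17. When this deviation was the covariate, 8 of 9 slopes were positive, where 49.9% of all genes had a positive slope. The slopes were 1.43 (SE 0.47) for Sdf2l1, 1.25 (SE 0.47) for Manf, 1.23 (SE 0.55) for Hyou1, 0.99 (SE 0.37) for Creld2 and 0.97 (SE 0.42) for Herpud1. Pdia4 had 0.75 (SE 0.42), Dnajb9 0.70 (SE 0.38), Xbp1 0.57 (SE 0.37) and Ddit3 -0.23 (SE 0.57), the last positive without female statin replicate 3. A slope of 1 means that the gene doubled when Hspa5 doubled. Dnajb9 and Creld2, on opposite sides under statin in males, both had a positive slope on Hspa5, but the Dnajb9 interval was -0.12 to 1.51 at the 95% level. Their own deviations did not run together in every group. In the male statin livers these were -0.28, 0.25 and 0.03 for Dnajb9 and 0.15, -0.07 and -0.08 for Creld2. In each female chow liver the deviations of the 2 genes had the same sign.

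In edgeR the adjusted p was 1.00 for each of the 9, and the count was 0 of 9 at an adjusted p under 0.05, 5 of 9 at an unadjusted p under 0.05 and 0 of 9 by DESeq2, where 0% of all genes were called and 3.85% had an unadjusted p under 0.05. By p, Sdf2l1 stood at rank 119 of 11967, Creld2 at 204, Manf at 212 and Ddit3 at 7345. Of the 75 other pathway genes 58 had a positive slope, made up of 21 of 23 chaperones, 16 of 17 translocation genes, 11 of 16 ERAD genes, 5 of 7 sensors and 5 of 12 integrated stress response genes. Of the heat shock genes 6 of 15 had a positive slope, and the lists were not tested against each other. The genes with the smallest p were Acnat2 (slope 2.65), Gm15502 (2.64), Il1r1 (2.30), Arhgef19 (1.83) and Vwa3b (2.57) among positive slopes, and Cyp46a1 (-2.36), Cd180 (-2.52) and Eepd1 (-2.01) among negative ones, each with an adjusted p of 1.00. Values from the same liver share a library and its scaling.

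**Figure D5:**
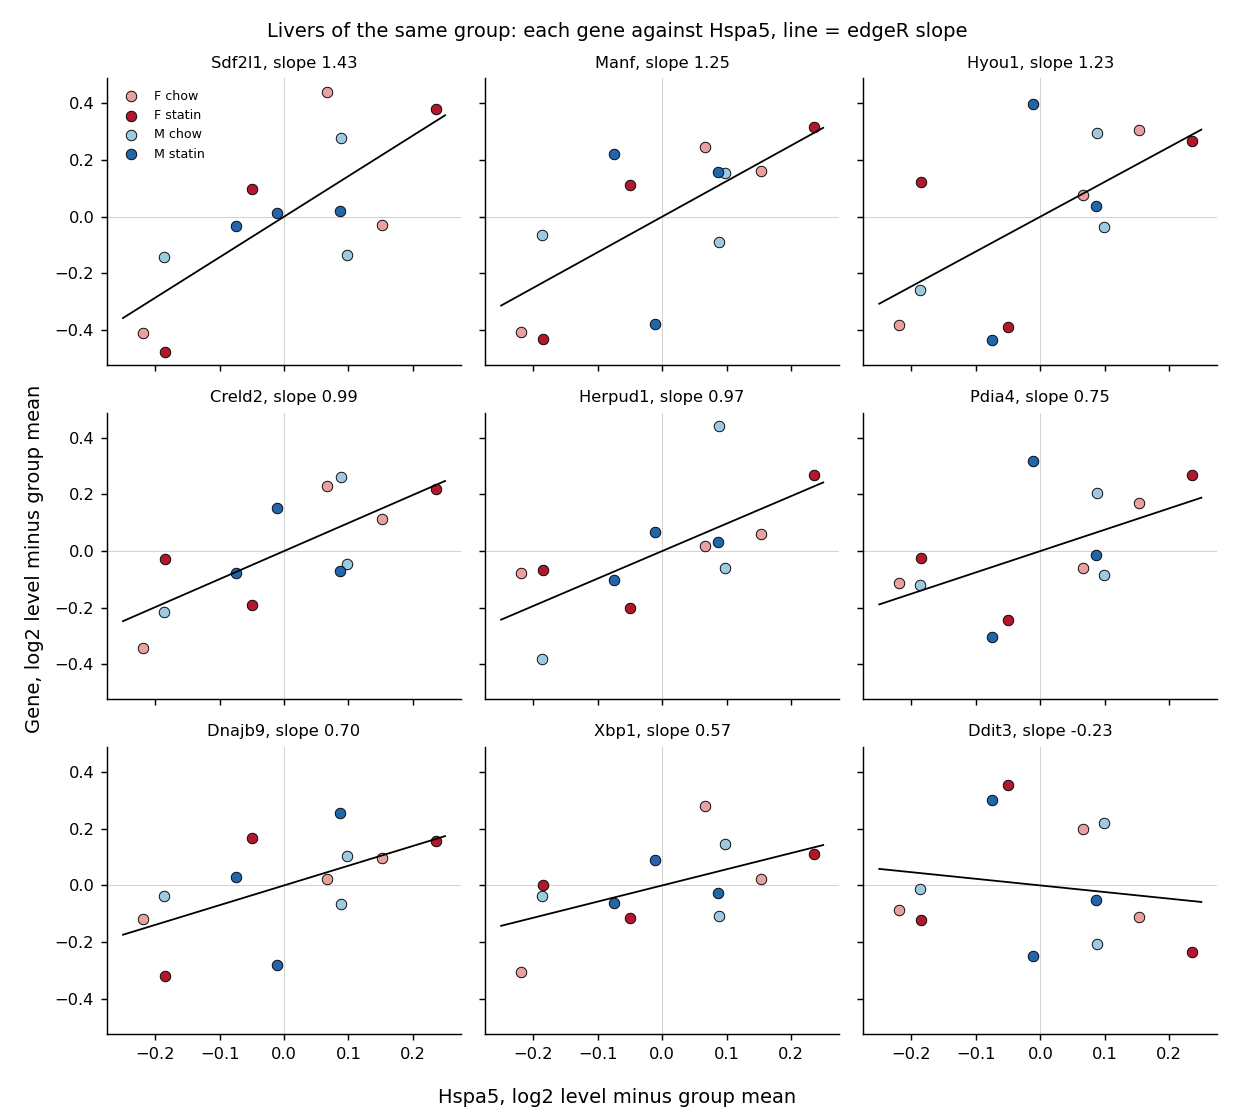
Log2 deviation from the group mean in each of the 12 livers, for 9 genes (vertical axes) against Hspa5 (horizontal axes), with the slope fitted by edgeR as a line. Slopes run from 1.43 for Sdf2l1 to -0.23 for Ddit3, the only one below 0.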

How the data were processed

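RNA-seq of 12 livers was compared in 4 groups of 3. Per the labels and the study's methods, the authors prepared strand-specific poly(A) libraries, sequenced 50 base paired reads, aligned them to GRCm38 and counted genes, with STAR 2.4.1a, HTSeq and edgeR 3.28.1 named in the submitters' processing notes. Whether counting used the strand is not given in the sources used here. The deposited counts per gene covered 11968 genes above 1 CPM in at least 6 livers, and the deposited CPM table covered 48526 genes. Of its values 100% were whole reads within 0.05 read, and the recovered reads equalled the deposited counts.

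One edgeR 4.0.16 quasi-likelihood fit (R 4.3.3, TMM scaling) covered all 4 groups, with Benjamini-Hochberg adjustment over all genes tested and a threshold of 0.05. Statin against chow in each sex, their difference, the sex difference averaged over diets and the slope on the within-group deviation of Hspa5 were estimated. For the 10 genes only the sex difference and the slope were tested, since these do not use the statin contrasts. The fit was tested on simulated data. Intervals at the 95% level used the t distribution with 12.1 degrees of freedom. Levels per kb used the union of annotated exons. Alternatives were other scalings and filters, DESeq2 1.42.0, limma 3.58.1, a replicate block and leaving out each liver. The 10 genes and the gene lists were chosen with earlier results of these data known. Named were all 10 genes, the annotated neighbours that passed the filter, up to 3 called genes with the smallest p per list and direction, the 2 highest and 2 lowest statin estimates per sex, and the 5 positive and 3 negative slopes with the smallest p.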

Additional observations from a re-analysis of the deposited data

Results flagged for a closer look

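Hspa4l, a cytosolic heat shock protein of the comparison list, stood out because its chow and statin livers were separated in both sexes in opposite directions. Its log2 fold change under statin was -0.61 (SE 0.12) in females and 0.17 (SE 0.12) in males. Of all genes 12% were separated in females and 7.95% in males, in either direction. The share separated in both sexes in opposite directions is not given here. The test of that difference in edgeR gave an adjusted p of 0.263, and DESeq2 called it. Groups of 3 livers were too small to be examined for single outlying livers.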

How the results depend on the processing

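With no filter on low counts, edgeR called 148 genes under statin in females, against 12, and 103 for the difference between the sexes, against 0. DESeq2 called 270 genes under statin in females (4 pathway genes), 4 in males, 122 for the difference between the sexes (2 pathway genes) and 7 for the slope. Each sex fitted alone gave 0 in females. The sex difference gave 1432 genes with the stricter filter, against 2170, and 3 pathway genes there or 12 with library size alone, against 6. Leaving out 1 liver gave 0 to 75 genes under statin in females, 75 without female statin replicate 2 and 0 without female statin replicate 3, with 0 to 1 pathway genes. It gave 0 to 14 for the difference between the sexes, 14 without female statin replicate 2.

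The replicate numbers did not pair the livers, since 2 of 12 correlated best with their own number and the 18 same-number pairs had a mean r of -0.109. The replicate block gave 5 genes under statin in females and 1 for the slope, and turned the sign of Derl3 in males to 0.077.

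Over the alternatives, the male log2 fold change was 0.70 to 0.97 for Dnajb9, -1.07 to -0.82 for Creld2, -0.87 to -0.65 for Sdf2l1 and -0.63 to -0.31 for Pdia4. When 1 liver was left out, the male value was -0.63 to -0.22 for Hyou1 and -0.23 to -0.10 for Hspa5, and the female value was -0.57 to -0.13 for Sdf2l1, -0.53 to -0.20 for Hyou1, -0.50 to -0.15 for Manf, -0.45 to -0.18 for Creld2, -0.41 to -0.21 for Hspa5, -0.36 to -0.07 for Xbp1, -0.26 to -0.03 for Herpud1 and 0.15 to 0.37 for Dnajb9. The sign of the Pdia4 value in females, the Manf value in males and the Ddit3 value in both sexes turned when 1 liver was left out, and male Xbp1 lay near 0. With library size alone the sex difference was -0.021 for Hspa5 and -0.016 for Dnajb9, and the slope of Ddit3 was 0.196, each of opposite sign to the reported value. That scaling moved the median of all genes by -0.064 in the sex difference. Leaving out 1 liver, the sex difference ranged from -0.021 to 0.088 for Hspa5, -0.217 to 0.0059 for Sdf2l1, -0.014 to 0.118 for Dnajb9 and -0.158 to 0.035 for Ddit3, with 0.006 to 0.166 for Pdia4, -0.26 to -0.05 for Herpud1, -0.21 to -0.07 for Creld2, -0.28 to -0.11 for Manf, -0.23 to -0.08 for Xbp1 and -0.44 to -0.24 for Hyou1. Over the same livers, Derl3 under statin in females ranged from -0.028 to 1.90 and the slope of Ddit3 from -0.434 to 0.305. The slopes on Hspa5 of the other 8 genes, without Ddit3, stayed positive in every alternative run, but leaving out 1 liver took Xbp1 to 0.20 and Pdia4 to 0.47. Of the remaining values under all alternatives, limma included, 2043 kept their call and direction or, untested, moved less than the spread between livers, 14 tested values turned sign, 22 lost a call, 6 gained one and 4 moved further. The cause of these shifts was not tested.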
